A study of Helianthus annuus with 6 samples.

Results

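The sunflower (Helianthus annuus) expression array examined here carried 40243 probes that were not control probes, and 74 of them were spotted 10 times on every array. The other 40169 probes were spotted once. The 74 probes were chosen by that layout alone: every probe marked as not a control and found on exactly 10 spots was taken, without regard to its signal. Each one is paired in the files with its own expressed sequence tag (EST), and no EST was shared. The identifiers of these 74 ESTs were looked up among the names and identifiers of RefSeq's genes for sunflower (assembly HanXRQr2.0), and 0 were found. No sequences were compared, so this does not show that the ESTs lack an annotated gene. The transcripts are therefore given by probe name, no gene function is attached to them, and no gene list was applied.

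RNA came from discs of leaves of V3-stage sunflower plants grown for 2 to 3 weeks, and each of 2 groups had 3 arrays. In the HaWRKY10 group the discs transiently carried HaWRKY10, a transcription factor, behind the 35S promoter. In the pBI121 group they carried the reporter GUS behind the same promoter, so both groups had gone through transient expression of a transgene. The 35S promoter is constitutive, and a transient assay reaches part of the cells of a disc. The design text gives HaHB11 in place of HaWRKY10 as the expressed factor. The sample labels were followed, and the disagreement was not settled. The design text calls the replicates biological, but no label says that they came from separate plants, so p-values measure the spread between these samples, which may be technical.

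WRKY proteins are plant transcription factors that carry the conserved WRKY amino-acid motif and bind W-box elements in promoters, with known roles in defence, senescence and germination. An EST is a single-pass read of a cloned cDNA, so its probe follows a transcript that had been seen expressed in some tissue. Probes repeated over the surface of an array show how far 1 transcript, measured several times in the same hybridisation, varies by position. Set beside the same transcript on other arrays, they separate the spread of spots from the spread of samples. A single-colour array gives 1 intensity per spot, and no probe's intensity can be read as the abundance of its transcript against another's, because probes differ in how well they bind.

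The 740 spots of these probes gave 138 spots over the 6 arrays that the scanner software marked as outliers (3.11% of 4440), with 67 on HaWRKY10 arrays and 71 on pBI121 arrays. These spots were left out. Levels below are log2 processed signals, averaged over a probe's remaining spots, minus the array's own 75th percentile, so that 0 is that percentile. The percentile itself lay at 255, 236 and 265 intensity units on HaWRKY10 arrays 1 to 3, and at 302, 205 and 201 on pBI121 arrays 1 to 3. A probe was tested where at least 3 of the 6 arrays, of whichever group, showed it well above background. Arrays of the same number shared a slide, and thus every one of the 3 slides paired a HaWRKY10 array with a pBI121 array.

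The EST probes were brighter as a set than the probes spotted once. The test included 50 of the 74 (67.6%), against 53.0% of the probes spotted once, and 48 (64.9%) were well above background on all 6 arrays, against 49.0%. The mean level of 34 EST probes lay above 0 (45.9%), against 24.9% of the probes spotted once. The mean level of 25 lay above the 90th percentile of all probes of the array, and that of 7 above the 99th. These shares are descriptions, with no test, of a set that the array's designers selected. The 50 tested probes had mean levels between -3.93 and 8.14, with a median of 2.33. Among the 48 that were well above background on every array, the levels spanned 11.7 log2 units.

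**Figure D1:**
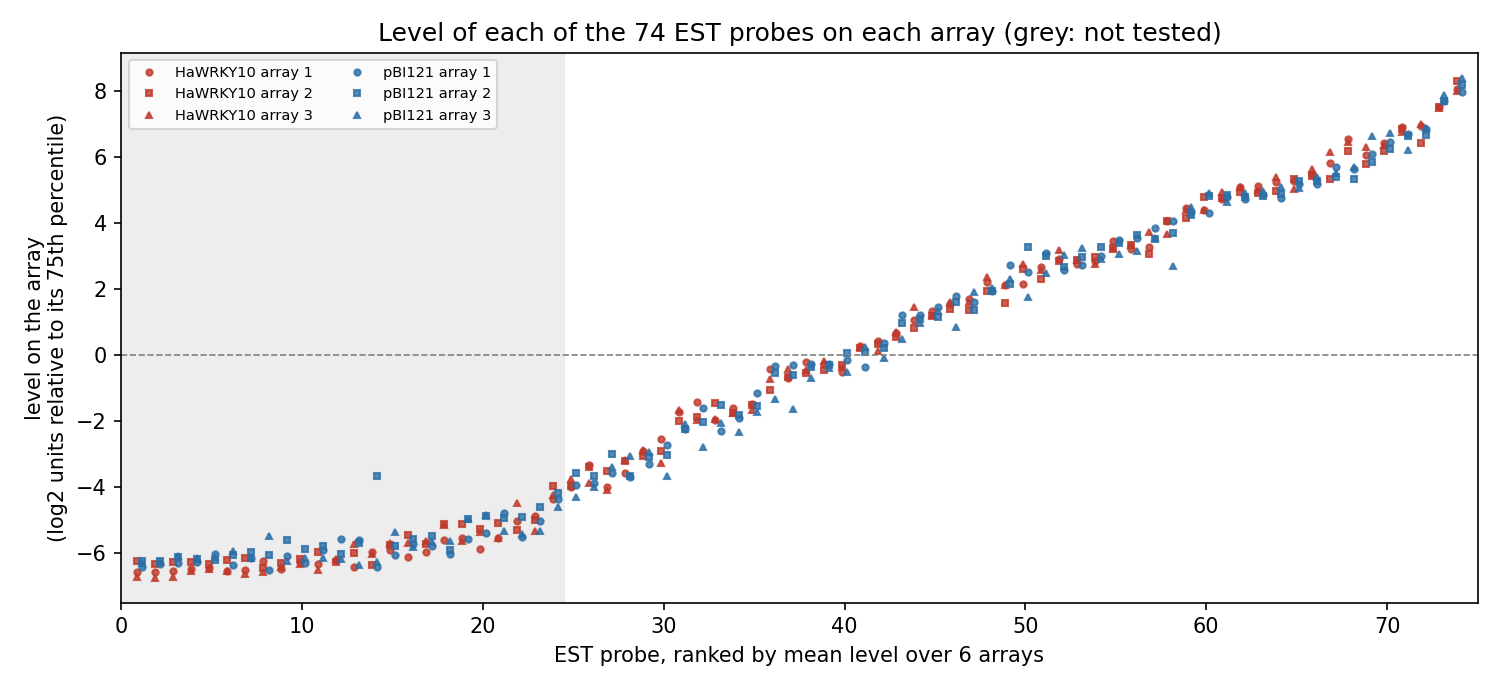
Level of each EST probe on each array (vertical axis, log2 units relative to the array's 75th percentile), with the 74 probes ranked by mean level on the horizontal axis. Red marks are HaWRKY10 arrays and blue marks pBI121 arrays, circles, squares and triangles are arrays 1, 2 and 3, and grey shading covers the 24 probes that were not tested. The marks of both groups lie along the same curve from dim to bright, and 1 blue square at -3.66 stands apart among the dim probes (CUST_59).

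The brightest EST probes were CUST_23, CUST_15, CUST_54 and CUST_45. CUST_23, the brightest, read 8.04, 8.30 and 7.98 on HaWRKY10 arrays 1 to 3, against 7.96, 8.17 and 8.38 on pBI121 arrays 1 to 3. Both groups covered the same interval, and the group means differed by -0.07 (95% interval -0.43 to 0.30). Its processed signal reached 75097 intensity units on pBI121 array 1, the highest value of any EST probe. CUST_54 read 6.93, 6.42 and 6.98 on HaWRKY10 arrays, against 6.85, 6.65 and 6.86 on pBI121 arrays. HaWRKY10 array 2 gave the lowest of these 6 values and HaWRKY10 array 3 the highest, so the groups overlapped. No spot of the 74 probes was flagged as saturated, with 0 such flags on each array. Some spots were flagged as scaled up from a scan at lower gain. Of the 740 spots per array these were 55, 36 and 66 on HaWRKY10 arrays 1 to 3. On pBI121 arrays 1 to 3 they were 56, 31 and 42. How this scaling bears on the brightest values was not tested.

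At the other end of the range, the tested probes that were well above background everywhere with the lowest mean levels were CUST_47, CUST_53, CUST_70 and CUST_61. CUST_53 read -3.60, -3.23 and -3.19 on HaWRKY10 arrays, against -3.70, -3.67 and -3.07 on pBI121 arrays. CUST_61 read -2.55, -2.92 and -3.30 on HaWRKY10 arrays, against -2.72, -3.02 and -3.68 on pBI121 arrays. The groups overlapped for both. CUST_70 read -2.91, -3.07 and -2.90 on HaWRKY10 arrays, against -3.32, -3.11 and -2.94 on pBI121 arrays, and these overlapped too. CUST_5 and CUST_60 entered the test although they were well above background on 5 arrays, and in both cases it was pBI121 array 3 that missed.

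The 24 probes left out of the test were dim on most arrays: 22 were well above background on no array, 1 on 1 array and 1 on 2. The processed signals of the 22 lay between 2.45 and 12.2 intensity units, with a median of 3.85. On this scale 21 of the 24 were lower on HaWRKY10 arrays and 3 were higher, with a median difference of -0.27 log2 units. The 18882 untested probes that were spotted once showed a median difference of -0.23 on the same scale. The share of those that were lower is not given, so the count of 21 is not a result about the EST probes. At signals this near background, neither median is read as lower expression with HaWRKY10. CUST_52 lay nearest below the limit of the test, well above background on HaWRKY10 arrays 2 and 3. It read -4.38, -3.98 and -4.24 on HaWRKY10 arrays, against -4.36, -4.18 and -4.62 on pBI121 arrays, and the groups overlapped.

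CUST_59, a dim probe, was well above background on a single array. It is described here after its values were seen. It read -5.99, -6.36 and -6.04 on HaWRKY10 arrays 1 to 3, against -6.42, -3.66 and -6.28 on pBI121 arrays 1 to 3. pBI121 array 2 stood 2.33 log2 units above the next highest array, while the other 2 pBI121 arrays lay within or just below the HaWRKY10 range. In intensity units the mean signal was 16.6 on pBI121 array 2 and 2.60 to 4.34 on the other 5 arrays. All 10 spots were used on that array, 7 of them well above background, against 0 spots on each of the others. The spots of pBI121 array 2 ran from -4.37 to -3.19, and the highest spot on any other array was -5.22. Of the probes spotted once, 1904 (4.74%) were also well above background on exactly 1 array, and 741 of those had a gap of at least 2 log2 units to the next array. For these no second spot could show whether the signal repeated over the surface. What set CUST_59 apart on this array was not tested.

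The repeated spots of an EST probe lay close together on the same array. Over the 48 probes detected well above background on every array, the median SD over spots was 0.0765, 0.0740 and 0.0676 log2 units on HaWRKY10 arrays 1 to 3, and 0.0728, 0.0693 and 0.0678 on pBI121 arrays 1 to 3. These correspond to coefficients of variation of 4.69% to 5.30% on the linear scale. The file headers report 4.64% to 5.31% for the same quantity. CUST_3, CUST_31 and CUST_41 had the tightest spots, with median SDs of 0.0421, 0.0443 and 0.0462. CUST_47, CUST_70 and CUST_53, all dim, had the widest, with 0.233, 0.184 and 0.176.

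Arrays of the same group differed from each other by more than the spots of 1 array did. The median SD between arrays within a group, pooled over both groups, was 0.211 log2 units, and per probe it was a median of 2.73 times the spot SD. It exceeded the spot SD for 47 of the 48 probes, with CUST_70 the exception at 0.817 times. The highest ratio was 10.1, for CUST_13. Spots accounted for a median of 11.9% of the variance that a single spot would show, and for over 50% of it in 2 probes, CUST_56 and CUST_70. If the spots were the sole source of error, the standard error of a difference between groups would have a median of 0.0189 log2 units; the limma fit over arrays gave 0.163.

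**Figure D2:**
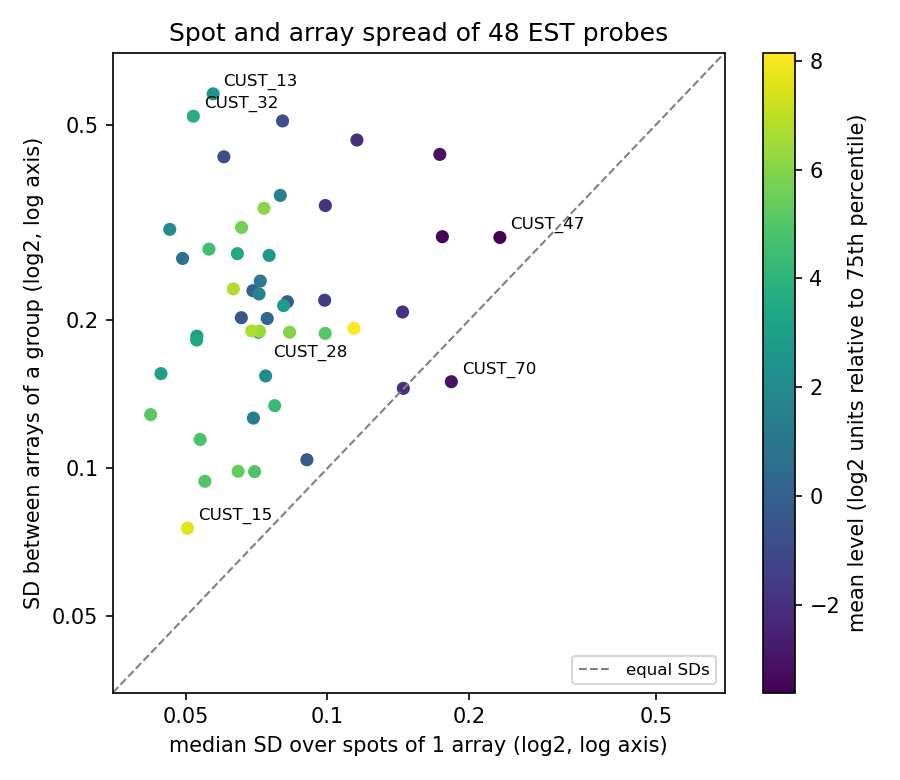
SD between arrays of a group (vertical axis, log2 units, log axis) against the median SD over the spots of 1 array (horizontal axis, log2 units, log axis) for the 48 EST probes that were well above background on all 6 arrays, with colour giving the mean level. The dashed line marks equal SDs. All points but CUST_70 lie above the line, 1 of them barely (CUST_56), with CUST_13 and CUST_32 farthest from it, and dark points, which are the dim probes, lie toward the right.

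CUST_13 shows this contrast most plainly. It read 2.14, 2.61 and 2.74 on HaWRKY10 arrays, against 2.51, 3.25 and 1.74 on pBI121 arrays. pBI121 arrays 2 and 3 were the highest and the lowest of all 6, and the HaWRKY10 values fell between them. The spots of pBI121 array 2 ran from 3.15 to 3.34 and those of pBI121 array 3 from 1.62 to 1.86. The means of HaWRKY10 and pBI121 differed by -0.01 (95% interval -0.90 to 0.89), so 10 closely matching spots per array left an interval of nearly 1 log2 unit on either side. Without pBI121 array 3 the difference was -0.39, and without pBI121 array 2 it was 0.37.

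CUST_32 and CUST_29 had the next largest spread between arrays. CUST_32 read 4.06, 4.04 and 3.64 on HaWRKY10 arrays, against 4.05, 3.68 and 2.70 on pBI121 arrays, while its spots had a median SD of 0.0519. CUST_29 read -0.71, -0.69 and -0.44 on HaWRKY10 arrays, against -0.30, -0.62 and -1.65 on pBI121 arrays. For both, pBI121 array 3 lay below all other arrays. Their differences of 0.44 and 0.24 came to 0.05 and -0.15 without that array, and that of CUST_32 to 0.72 without pBI121 array 1. CUST_15, CUST_9 and CUST_63 had the smallest spread between arrays, with SDs of 0.0756, 0.0942 and 0.0985. CUST_9 read 5.12, 4.90 and 4.999 on HaWRKY10 arrays, against 4.84, 4.80 and 4.94 on pBI121 arrays, and the groups overlapped.

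The spread between arrays was not alike in the groups. The median SD over 3 arrays was 0.160 in HaWRKY10 and 0.240 in pBI121, and the pBI121 value was larger for 34 of the 48 probes. Without pBI121 array 3 the pBI121 median was 0.146. For the tested probes spotted once, the corresponding medians were 0.148 in HaWRKY10 and 0.178 in pBI121. pBI121 array 3 was the array farthest from the other 2 of its group for 34 of the 50 tested EST probes (68%), against 46.1% of all tested probes. In the HaWRKY10 group, array 2 was the farthest for 23 of 50 (46%), against 37.0%. These shares are descriptions, with no test.

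Brightness went with both kinds of spread. Among the 48 EST probes that passed on every array, the 14 with a mean level below 0 had a median spot SD of 0.107 and a median array SD of 0.257. The 34 with a level above 0 had 0.0693 and 0.192. Probes spotted once, in the same level classes, had median array SDs of 0.218 (9672 probes) and 0.148 (9992 probes). The array SDs of the EST probes were thus higher at either level although each was a mean of up to 10 spots. Among the 24 untested probes the order of spots and arrays turned round: the median spot SD was 0.417 and the median array SD 0.234, and arrays exceeded spots in 3 of 24.

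**Figure D3:**
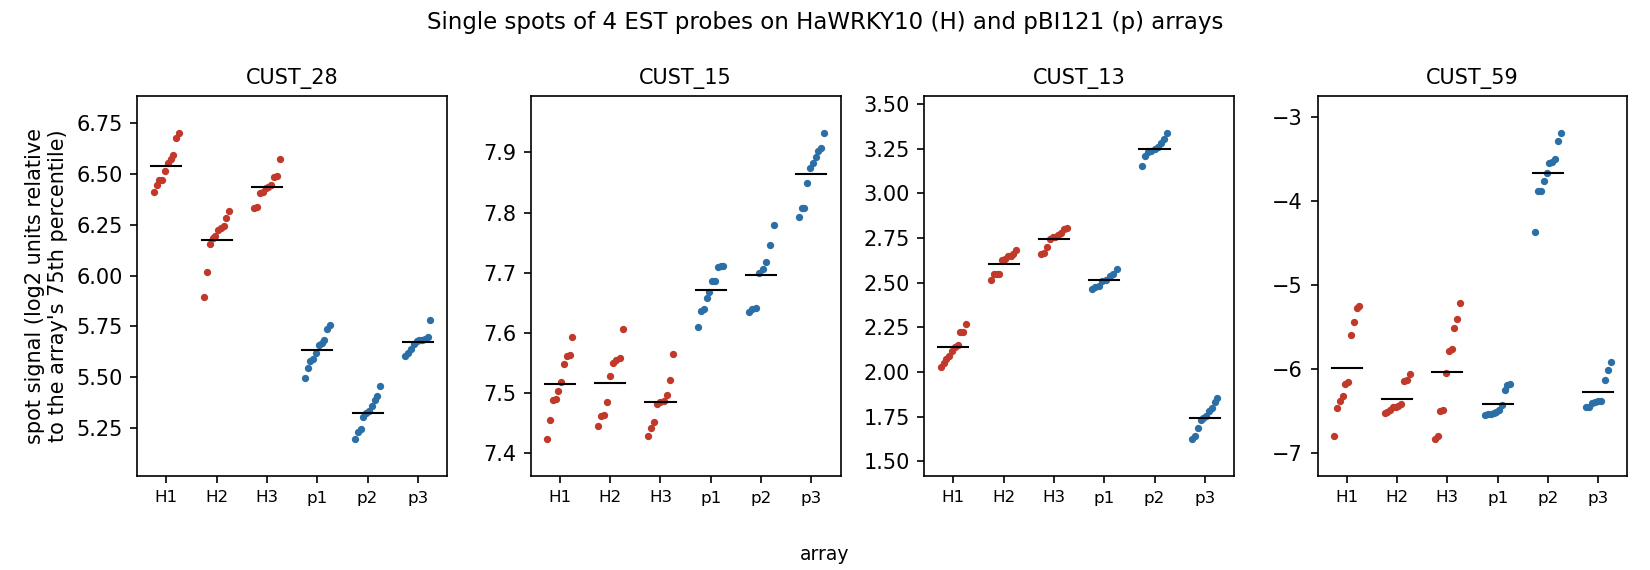
Single spots (points, in rising order within an array) and their mean (black bar) for CUST_28, CUST_15, CUST_13 and CUST_59, in log2 units relative to the array's 75th percentile on the vertical axis, with HaWRKY10 arrays H1 to H3 in red at left and pBI121 arrays p1 to p3 in blue at right. All red points of CUST_28 lie above its blue points and all red points of CUST_15 below its blue points. The spots of CUST_13 sit tightly around array means that lie far apart, and CUST_59 is high on pBI121 array 2 alone.

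The place of a spot on the array carried part of the spread within it. For each spot its deviation from the mean of its probe on that array was compared between arrays at the same position, over 440 of 480 positions that were free of outlier flags everywhere. In the processed signal these deviations correlated at 0.188 to 0.481 over the 15 pairs of arrays, with a median of 0.363. Pairs on the same slide gave 0.282 to 0.415, inside the range of pairs on different slides. In the background-subtracted signal, before the scanner software divided out its fitted surface, the same correlations were 0.712 to 0.835, with a median of 0.782. The positions share the printed layout, and the correlations are descriptions. The mean deviation of a position over arrays had correlations of -0.0614 with its row and -0.0420 with its column, so that mean held little straight gradient. Gradients on single arrays, which could cancel in the mean, were not examined.

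**Figure D4:**
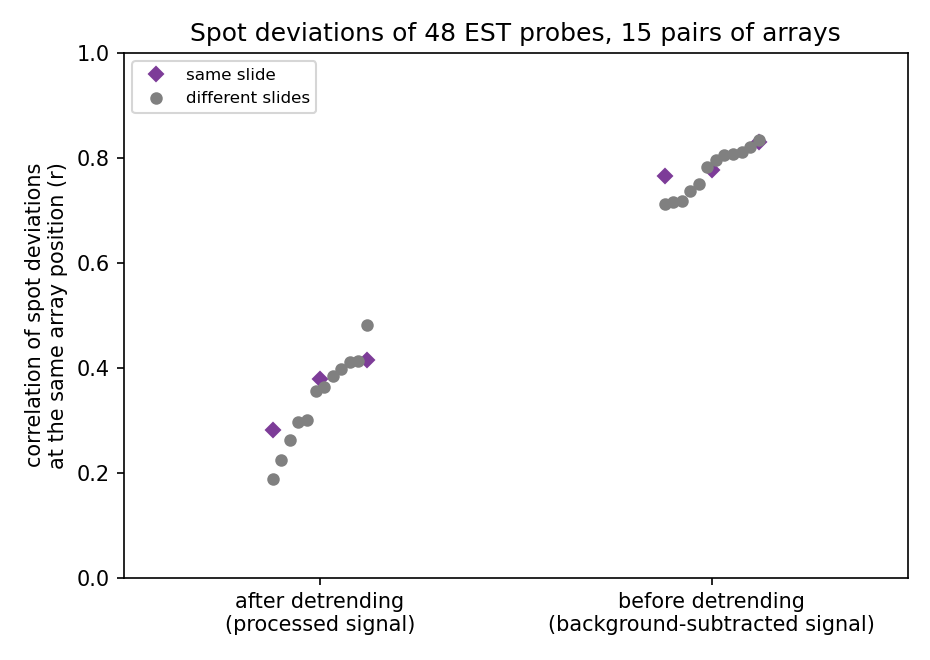
Correlation of spot deviations at the same array position (vertical axis, Pearson's r over 440 positions of 48 EST probes) for each of the 15 pairs of arrays, after the scanner software's detrending at left and before it at right. Purple diamonds are pairs on the same slide and grey circles pairs on different slides. The values lie between 0.188 and 0.481 after detrending and between 0.712 and 0.835 before it, and the diamonds lie among the circles.

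Detrending also narrowed the spots. The median spot SD was 0.0717 in the processed signal, against 0.175 in the background-subtracted signal before detrending, and it was smaller after detrending for 47 of the 48 probes. The array SD exceeded the spot SD for 47 of 48 probes in the processed signal, against 33 before detrending. The sources used here do not say whether the surface was fitted on these same spots. If it was, their spread after detrending would be smaller than that of spots the fit did not use, and this was not tested.

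Outlier flags marked spots of 45 of the 74 probes, and they were unevenly spread over brightness. The 50 tested probes lost 65 spots (2.17%) and the 24 dim probes 73 (5.07%). CUST_24, a dim probe, lost 9, the most of any. Of the 138 spots 85 lay above the median of their probe's unflagged spots on the same array and 53 below. The flagged spots fell on 105 positions, of which 83 were flagged on 1 array, 15 on 2 and 7 on 3 or more, with up to 5 arrays at the same position. All 138 were flagged as unlike their probe's other spots, a flag that 0 of the probes spotted once received. An aberrant spot of a probe spotted once therefore passed unmarked unless its pixels were uneven.

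The comparison of the groups asks which leaf transcripts differ in level when HaWRKY10 is expressed. Of the 50 tested EST probes 28 were higher and 22 lower in HaWRKY10 than in pBI121, with a median difference of 0.03 log2 units. Over all tested probes the median was 0.00. The median size of a difference was 0.164 for the EST probes and 0.161 over all tested probes. In limma's test, 0 of 50 passed an adjusted p of 0.05, where 0.00469% of all tested probes did, and the lowest adjusted p was 0.193. An unadjusted p under 0.05 was reached in that test by 3 of the 50, or 6%, against 12.2% of all tested probes. With slide as a replicate block, 5 of the 50 reached it, or 10%, against 15.1%. These were CUST_28, CUST_47, CUST_56, CUST_41 and CUST_45, and the lowest adjusted p was then 0.192. A difference of at least 2-fold was seen for 0 of 50, against 1.7% of all tested probes.

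CUST_28 (EST BU672074.1) had the largest difference of the 50. It is a bright probe, above the 99th percentile of the array. It read 6.54, 6.17 and 6.43 on HaWRKY10 arrays 1 to 3, against 5.63, 5.33 and 5.67 on pBI121 arrays 1 to 3. Every HaWRKY10 array lay above every pBI121 array, and so did every spot: the lowest of 30 HaWRKY10 spots was 5.90 and the highest of 30 pBI121 spots was 5.78. The difference was 0.84 log2 units (standard error 0.15, 95% interval 0.48 to 1.20), or 1.79-fold, with a limma adjusted p of 0.193. Within slides 1 to 3 it was 0.91, 0.85 and 0.76. It ran from 0.78 to 0.96 over the 10 single positions, and it was 0.64 in the authors' deposited log2 table. The adjusted p lay between 0.0966 and 0.540 over the alternative settings, so the call was missed in each.

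CUST_56 (EST BU671924.1) read -1.72, -2.01 and -1.67 on HaWRKY10 arrays, against -2.26, -2.26 and -2.09 on pBI121 arrays. The groups did not overlap, with HaWRKY10 array 2 the nearest to the pBI121 values. The difference was 0.41 (standard error 0.13), with a limma adjusted p of 0.330. It was 0.21 after background correction by normexp. That correction started from the median spot signals, without the scanner software's detrending, and added an offset of 50 intensity units. The processed signals of CUST_56 were 43.2 to 83.5 units, near that offset. CUST_47 (EST BU671832.1), the dimmest probe that was well above background throughout, read -4.00, -3.53 and -4.09 on HaWRKY10 arrays, against -3.58, -3.01 and -3.40 on pBI121 arrays. HaWRKY10 array 2 lay above pBI121 array 1, so the groups overlapped, although HaWRKY10 was lower on each slide, by -0.42, -0.52 and -0.69. The difference was -0.54 (standard error 0.21) with a limma adjusted p of 0.381, and it was -0.09 after normexp. The processed signals of CUST_47 were 16.0 to 25.7 units, below the normexp offset.

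CUST_41 and CUST_50 followed CUST_47 on the lower side. CUST_41 read 2.11, 1.56 and 2.10 on HaWRKY10 arrays, against 2.72, 2.15 and 2.29 on pBI121 arrays. The groups did not overlap, and the highest HaWRKY10 array lay just below the lowest pBI121 array. The difference was -0.47 with a limma adjusted p of 0.441, and it ran from -0.48 to -0.43 over single positions. Single arrays moved it more: it was -0.29 without HaWRKY10 array 2 and -0.30 without pBI121 array 1. CUST_50 read 2.65, 2.28 and 2.56 on HaWRKY10 arrays, against 3.09, 2.98 and 2.47 on pBI121 arrays. pBI121 array 3 lay among the HaWRKY10 values, so the groups overlapped. Its difference of -0.35 was -0.54 without pBI121 array 3 and -0.23 without pBI121 array 1.

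CUST_15 (EST BU671868.1) was the steadiest of the EST probes between arrays. It read 7.51, 7.52 and 7.48 on HaWRKY10 arrays, against 7.67, 7.70 and 7.86 on pBI121 arrays. The groups did not overlap, and neither did any of their unflagged spots: the highest HaWRKY10 spot was 7.607 and the lowest pBI121 spot 7.609. Flagged and left out were 4 spots of this probe, and whether the narrow gap holds with them was not examined. CUST_28 and CUST_15 were the 2 tested EST probes with no overlap at the level of unflagged spots. The difference of CUST_15 was -0.24 (standard error 0.11), or 1.18-fold lower in HaWRKY10, with a limma adjusted p of 0.428.

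Groups that did not overlap were seen for 6 EST probes higher in HaWRKY10, or 12% of the 50, against 9.98% of all tested probes, and for 2 lower, or 4%, against 9.3%. The 6 were CUST_28, CUST_56, CUST_45, CUST_36, CUST_63 and CUST_16, and the 2 were CUST_41 and CUST_15. CUST_45 read 6.90, 6.85 and 6.76 on HaWRKY10 arrays, against 6.69, 6.62 and 6.21 on pBI121 arrays, with pBI121 array 3 lowest. CUST_63 read 5.09, 4.93 and 5.09 on HaWRKY10 arrays, against 4.70, 4.79 and 4.91 on pBI121 arrays, a narrow gap between HaWRKY10 array 2 and pBI121 array 3. None of the 8 passed the adjusted threshold. The same direction on all 3 slides was seen for 23 of 50 (46%), 17 of them higher and 6 lower, against 40.8% of all tested probes.

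**Figure D5:**
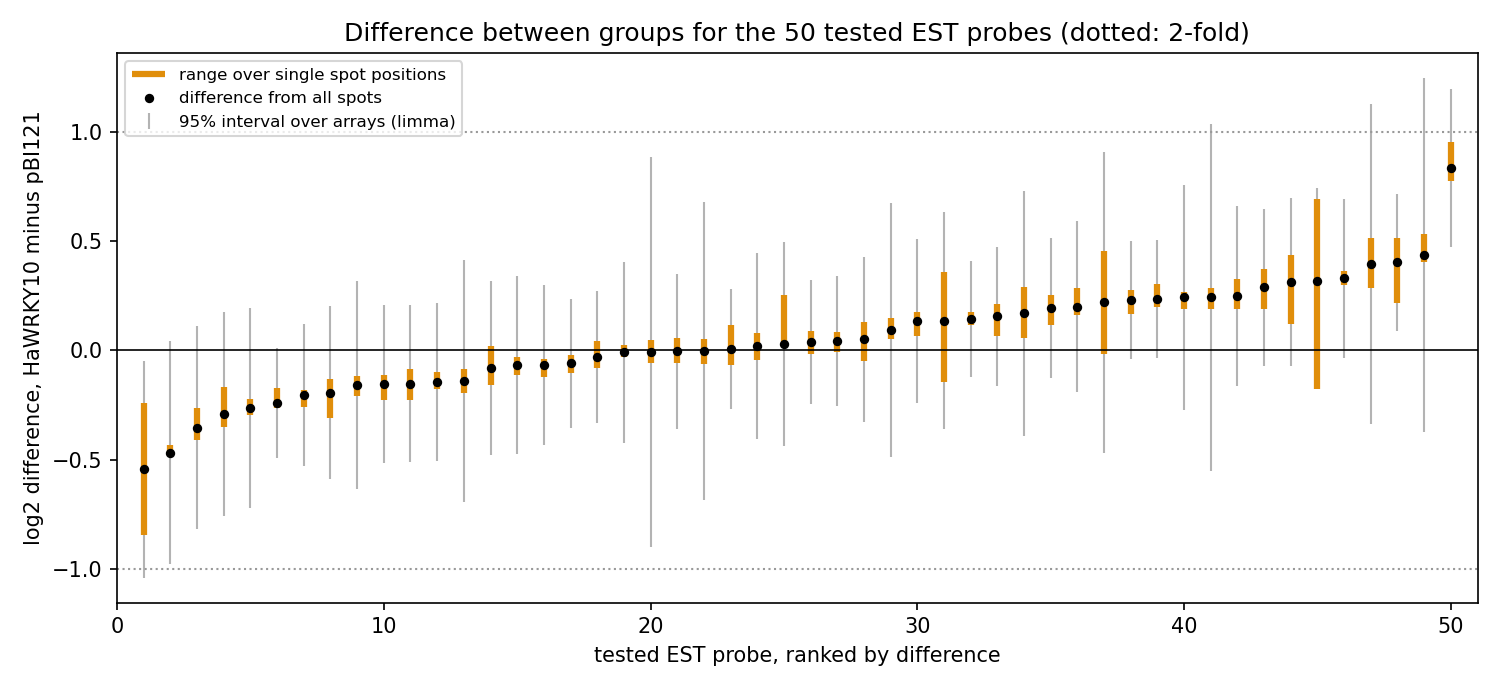
Difference between HaWRKY10 and pBI121 (vertical axis, log2 units) for the 50 tested EST probes, ranked by difference on the horizontal axis. Black points use all spots, grey lines are 95% intervals over arrays from limma, orange bars span the differences obtained from single spot positions, and dotted lines mark 2-fold. The grey lines are longer than the orange bars for nearly all probes, and the highest point is CUST_28 at 0.84.

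The slides did not shift the EST probes alike. On slide 1 the HaWRKY10 array was higher for 28 of the 50, with a median difference of 0.07, on slide 2 for 23 with a median of -0.04, and on slide 3 for 36 with a median of 0.16. Deviations from the group means, correlated over the 50 probes between arrays of the same slide, were 0.524, 0.563 and 0.254 on slides 1 to 3. Over all tested probes they were 0.173, 0.249 and 0.232. Between arrays of different slides and different groups the EST probes gave -0.335 to -0.0911, where negative values are partly built in because deviations within a group cancel out.

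The intervals limit what could be missed. The median 95% half-width of a difference was 0.395 log2 units, a ratio of 1.31, and it ran from 0.252 to 0.895. The interval lay within 2-fold in both directions for 45 of the 50 EST probes. It reached past 2-fold for CUST_28, CUST_32, CUST_74, CUST_29 and CUST_47. The estimated difference was within 1.5-fold for 49 of 50, CUST_28 being the exception.

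The number of spots had little bearing on these differences. Each position that was free of flags on all 6 arrays gave a difference of its own, 453 in all for the 50 probes, and 0 of them reached 2-fold. All positions of a probe gave the same sign for 36 of 50. With a single spot per probe in place of up to 10, the difference changed by a median of 0.0290 log2 units and by at most 0.153. Its sign turned for 3 probes, whose differences were at most 0.0653 in size. With 1 spot per probe, 0 of the 50 passed the adjusted threshold of limma as well, and the lowest adjusted p was 0.235. The spot used was the first without an outlier flag. That flag rests on the repeated spots, so this setting does not fully stand in for a probe spotted once.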

How the data were processed

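The rule for the members used the array's layout alone, but the rule and the lists were chosen with earlier results of these data known. Per the file headers, the deposited intensity of each spot is a processed signal from Agilent Feature Extraction 11.5.1.1 (the submitters' processing notes name 9.1), background-subtracted and divided by a fitted surface, with no scaling between arrays. The deposited log2 table of the authors, whose making the sources used here do not state, served as an alternative. Spots that the deposited files flag as non-uniform or population outliers were left out. The remaining log2 processed signals were averaged per probe and scaled to the array's 75th percentile. A probe counted as well above background on an array when over 50% of its unflagged spots carried that flag.

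HaWRKY10 was compared with pBI121 over all 6 arrays in limma 3.58.1 (lmFit and eBayes, R 4.3.3), with Benjamini-Hochberg adjustment over 21326 probes and a threshold of 0.05. The fit was also run on simulated arrays with 200 changed probes, each changed by more than any EST probe here. Their noise was independent between arrays, whereas the deviations of the real arrays correlated within slides. That run therefore cannot show how the fit performs on these data. Spot SDs are medians over arrays, and array SDs are pooled over groups. The number of arrays limits the precision.

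Replicate numbers coincided with slides, per the file headers, and same-numbered deviations correlated above 0.1 in each pair over all tested probes. The reported fit did not use this pairing, so its standard errors, intervals and p-values are unpaired. A replicate block was used in alternative fits, and differences within slides are given for some probes. Probes were named by rule: those with an unadjusted p under 0.05, the 3 largest differences each way, the 4 brightest and 4 dimmest, the 3 largest and 3 smallest spot and array SDs, and those at the limit of the test. CUST_5, CUST_60, CUST_59, CUST_24, CUST_74, CUST_36, CUST_16 and CUST_21 were named after their values were seen.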

Additional observations from a re-analysis of the deposited data

How the results depend on the processing

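The count of EST probes past the adjusted threshold was 0 in the reported fit and in all 19 refits, which include the fit with a fixed replicate block, also 0, other scalings, normexp, other spot summaries, other filters and each array left out. The lowest adjusted p ran from 0.0966 to 0.540 and the count at an unadjusted p under 0.05 from 1 to 8. The 8 probes whose groups did not overlap became 3 after normexp and 13 of 74 with no filter. They became 8 to 19 when 1 array was left out, with 17 without HaWRKY10 array 2 and 19 without pBI121 array 3. Fewer arrays make separation easier for any probe. Shares over all tested probes are not given for these refits, the fixed replicate block aside. Neither these counts nor those at an unadjusted p are therefore a result about the EST probes. In place of a replicate block, 23 of 50 (46%) kept 1 direction within all 3 slides, against 40.8% of all tested probes. The median spot SD of 0.0717 was 0.144 after normexp and 0.175 before detrending, an alternative chosen after seeing the data, and the CV was 4.98%. The number of probes higher in HaWRKY10 ran from 24 (without pBI121 array 3) to 37 (scaling to the median) and the median difference from -0.05 to 0.13. The median array SD ran from 0.165 to 0.238. Moves of over 1 SD were looked for in CUST_28, CUST_32, CUST_41, CUST_47, CUST_50 and CUST_56 alone. Of their 114 recomputed differences, 4 moved that far. CUST_28 moved to 0.64 in the authors' table. CUST_47 moved to -0.09 and CUST_56 to 0.21 after normexp, and CUST_56 to 0.25 with 1 spot. CUST_21, a bright probe outside this check, went from -0.03 in the reported fit to -0.64 in the authors' table. CUST_47 and CUST_56 lay below the array's 75th percentile and CUST_28 above its 99th. Normexp included the offset of 50 intensity units. The cause of these moves was not tested.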
